A study of Saccharomyces cerevisiae with 14 samples.

Results

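DT1 is a yeast strain (yjdi355) that carries a galactose-induced TAF1 mutant, and it was set here against FHT-WT1 (yjdi353), the strain whose label names the wild type. The 2 arrays whose titles end in DT1 and the 2 whose titles end in FHT-WT1 were taken, 4 of the 14 arrays of the series. The other 10 arrays held the construct strains TF1, HT4 and PB1, the null strain, and a homotypic pair with the common reference strain, yjdi363, in both dyes. By its title the series asks which transcripts depend on which functional domains of TAF1. Every strain was grown in CSM-LEU medium with 3% raffinose to an OD600 of about 0.7, received 2% galactose for 30 min at 25 °C, and was then shifted to 37 °C for 45 min before harvest, so the galactose and the heat are shared by DT1, FHT-WT1 and the reference. The labels neither explain the code DT1 nor give the genotypes of the strains, and no part of the TAF1 protein is assigned to it. Whether the arrays of 1 strain came from separate cultures is not given, so the spread behind the p-values may be technical only.

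TAF1 is a subunit of TFIID, the general transcription factor that brings the TATA-binding protein to promoters of RNA polymerase II. It serves as a scaffold for other TFIID subunits and contacts the TATA-binding protein directly. In budding yeast, ribosomal protein genes are a classic group of strongly TFIID-dependent genes, while many stress-induced genes rely more on the related coactivator SAGA.

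The values are log2 ratios of polyA RNA for 5535 genes, measured on PCR-product arrays with 2 dyes, with each array centred on its median over named genes. On array 1 of each strain the strain was labelled with Cy5 and on array 2 with Cy3. A gene is called where limma's Benjamini-Hochberg adjusted p over the 5535 genes is under 0.05. No source gives the direction of the ratios. It was read as strain over reference, because TAF1 in the null strain then lies far below the reference, and each rise and fall below rests on that choice. The FHT-WT1 arrays did not resemble each other: across genes their ratios correlated with r = -0.0059, against 0.658 for the DT1 pair. Nor did the homotypic arrays, with r = -0.2269. Homotypic array 2 correlated with FHT-WT1 array 1 with r = -0.329 and with DT1 array 1 with r = -0.2996. All of these pairs, the DT1 pair included, are of opposite dye orientation. In the same orientation, FHT-WT1 correlated with the homotypic arrays with r = 0.4049 (array 1) and 0.272 (array 2). With DT1 it then correlated with r = 0.5811 and 0.3052. Ratios spread more widely in DT1, with an SD over genes of 0.333 and 0.314 on the DT1 arrays and 0.1785 and 0.2264 on the FHT-WT1 arrays. As deposited, on the authors' spike-control scale, the median over named genes was -0.1018 and -0.1077 on the DT1 arrays, against 0.0677 and 0.0426 on the FHT-WT1 arrays. On that scale the homotypic arrays, with the reference strain in both dyes, stood at 0.3012 and 0.2444, and the null arrays at 0.4125 and -0.1837. Offsets between arrays were thus as large as this shift, and whether it belongs to DT1 was not tested. Centring removes it from the values below. FHT-WT1 itself had 0 genes called against the homotypic pair by limma and 274 at an unadjusted p under 0.05.

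TAF1 RNA was measured at log2 ratios of -0.31 and -0.78 on the DT1 arrays, against -0.06 and -0.63 on the FHT-WT1 arrays. The strains overlapped, with the second array the lower in each. The difference was -0.20 ± 0.21 (SE) and was not called (limma adjusted p = 0.68). In the null strain TAF1 lay at -3.52 and -3.46, far below both DT1 arrays. The arrays measure RNA and say nothing of the protein. Of 15 TFIID genes 0 was called by limma, their differences ran between -0.21 (TAF14) and 0.31 (TAF3), and their median was 0.02, against -0.01 over all genes.

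DT1 differed from FHT-WT1 in a small set of genes. Of the 5535 genes 50 were called, 0.903%, with 11 higher (0.199%) and 39 lower (0.705%) in DT1, and 965 (17.4%) had an unadjusted p under 0.05. MET17 had by far the largest difference of all, followed among the rises by BUD6, the ammonium permease MEP2 and the urea transporter DUR3. The falls were many and small, between -1.0 for DFP4 and -0.52 for CPR5, and most were of short genes. When the arrays were scaled to 1 spread or quantile normalised, 3 genes were called, MET17 and BUD6 higher and ADH7 lower. Without DT1 array 2, MET17 was the 1 gene called, and without DT1 array 1 there were 11 called genes, of which 6 were among the 50.

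**Figure D1:**
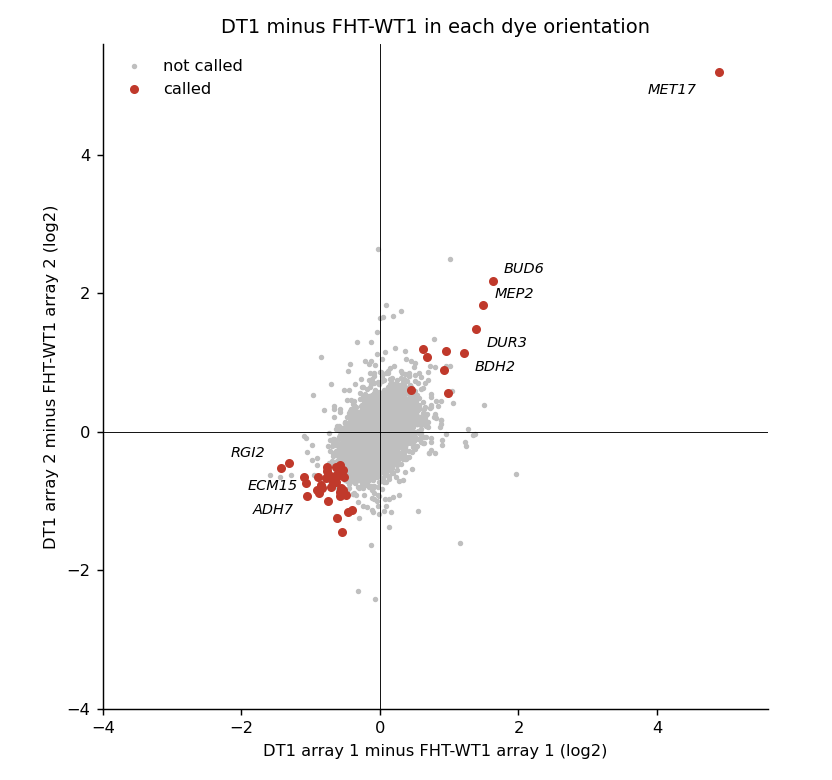
DT1 minus FHT-WT1 for each gene, on the log2 scale, with the strain in Cy5 (array 1, x axis) and in Cy3 (array 2, y axis). Grey points are genes not called and red points the 50 called genes. All 50 have the same sign on both axes, while 3638 of the 5535 genes do, but the calls were made from these same arrays. The agreement among called genes is therefore no separate support. MET17 lies near 5 on both axes, far from all others.

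MET17 encodes the enzyme that builds sulfide into homocysteine, and its deletion is a common auxotrophic marker in laboratory strains. Relative to yjdi363, MET17 had log2 ratios of 4.97 and 4.80 on the DT1 arrays, against 0.07 and -0.39 on the FHT-WT1 arrays. Both DT1 arrays were far above both FHT-WT1 arrays. The difference was 5.05 ± 0.21 (SE), a 33.1-fold higher RNA level in DT1 (limma adjusted p = 1.02e-07). The call was kept in all 26 alternative analyses, several of which repeat the same fit, with differences between 3.74 under quantile normalisation and 5.28. Other construct strains were as high, with MET17 at 5.10 and 4.58 in TF1, at 5.26 and 4.44 in HT4 and at 5.30 and 4.00 in PB1, but it lay at 0.07 and -0.34 in the null strain. In the homotypic pair it lay at -0.02 and -0.35. DT1, TF1, HT4 and PB1 were thus high and the null strain, FHT-WT1 and the reference were not. DT1 differed from the mean of TF1, HT4 and PB1 by only 0.11 ± 0.17 (limma adjusted p = 0.854).

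No other gene of the sulfur pathway was called. Among 49 genes of sulfur assimilation and methionine metabolism, MET17 was the 1 called, against 0.199% of all genes called higher. With it 4 were higher and 9 were lower with p under 0.05 before adjustment, against 6.85% and 10.6% of all genes, and the median was -0.08. MHT1, an S-methylmethionine methyltransferase, lay at -0.60 and -0.83 in DT1 and at 0.02 and -0.04 in FHT-WT1, without a call (-0.71 ± 0.15, limma adjusted p = 0.0509). MET16, which reduces activated sulfate, differed by -0.57 ± 0.13 and was not called either (limma adjusted p = 0.0625).

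BUD6 encodes an actin- and formin-binding protein of the polarised bud tip. It lay at 1.81 and 2.05 on the DT1 arrays, against 0.18 and -0.13 on the FHT-WT1 arrays, and the strains did not overlap. It rose by 1.90 ± 0.22 (SE), 3.74-fold (limma adjusted p = 0.00294). It was high in the same strains as MET17, with 1.82 and 2.04 in TF1, 2.08 and 1.43 in HT4 and 2.30 and 1.5 in PB1, and near the reference in the null strain (0.33 and -0.01) and in the homotypic pair (0.09 and -0.16). The call was lost in 2 of 26 alternatives, with an adjusted p of 0.0994 without DT1 array 2 and 0.0734 when the DT1 and FHT-WT1 arrays were fitted alone. Of 34 genes of cell polarity and bud site selection, BUD6 was the 1 called, against 0.199% of all genes called higher. The median of the list was 0.03.

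**Figure D2:**
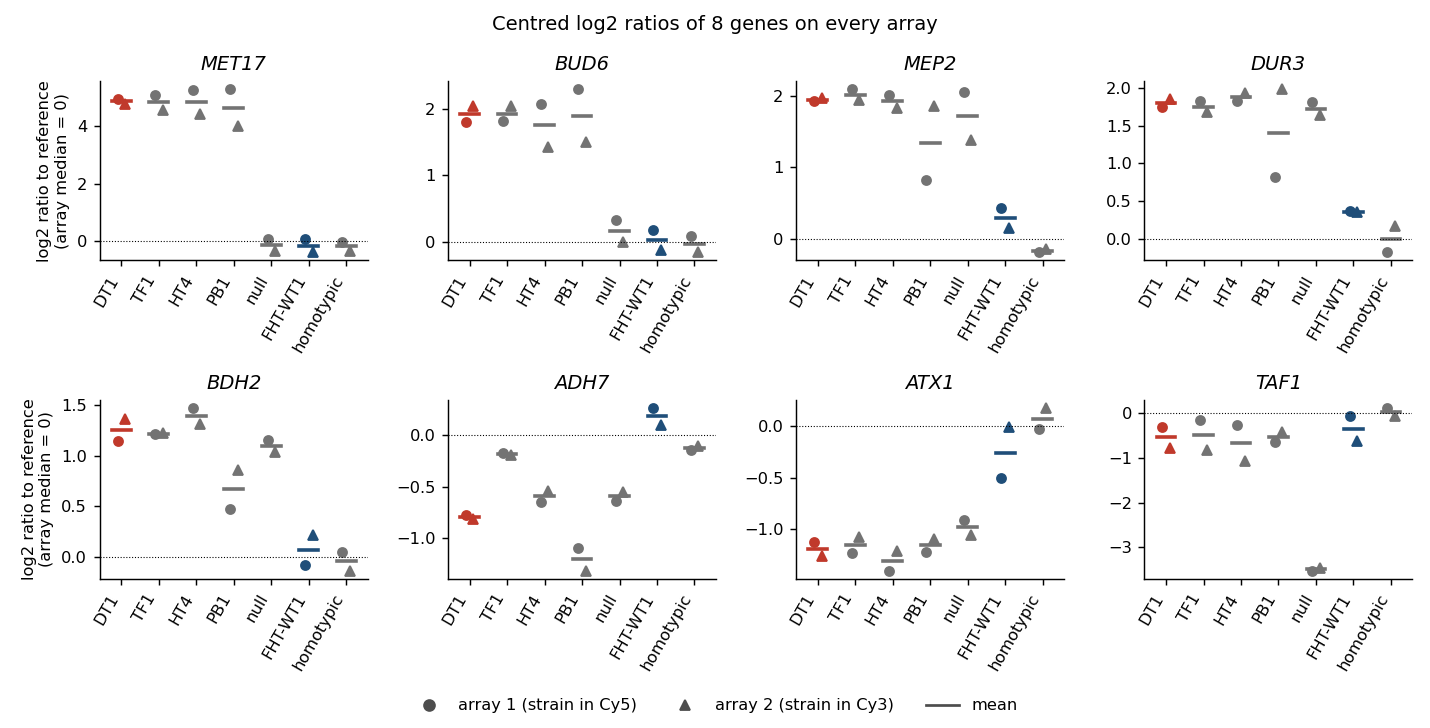
Centred log2 ratios to the reference of 8 genes on every array, with DT1 in red at the left, the other construct strains and the null strain in grey, FHT-WT1 in blue and the homotypic pair last; circles are array 1, triangles array 2 and bars the mean of 2 arrays. MET17 and BUD6 are high in DT1, TF1, HT4 and PB1 and near 0 in the null strain, while MEP2, DUR3 and BDH2 are high and ATX1 low in the null strain too, and TAF1 is lowest in the null strain.

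MET17 and BUD6 lie on the same chromosome, XII, with 16 annotated genes between them, 13 of which were measured. None of the 13 was called by limma, against 0.903% of all genes, a share that makes few calls likely among 13. Their differences ran between -0.40 and 0.77 with a median of -0.07. EST2, the gene next to BUD6 and the catalytic subunit of telomerase, had 1.02 and 0.47 on the DT1 arrays, against -0.04 and 0.05 on the FHT-WT1 arrays (0.74 ± 0.20, limma adjusted p = 0.1). Like BUD6 it was high in TF1 (0.81 and 1.07), HT4 (1.15 and 1.03) and PB1 (1.44 and 0.74) and not in the null strain (-0.03 and 0.01). ACO1, the mitochondrial aconitase gene close to MET17, had 0.89 and 0.94 in DT1, against 0.54 and -0.23 in FHT-WT1 (0.77 ± 0.25, limma adjusted p = 0.15), but it was also high in the null strain (1.14 and 1.40). The PCR products carry both strands, so transcripts of overlapping neighbours cannot be told apart. On the other side of BUD6, MMS22 and SFH1 differed by 0.47 and 0.33 (limma adjusted p = 0.19 each), and the next genes, CWC24 and PEX30, by 0.08 and -0.06. MMS22 was also high in the null strain (0.87 and 1.14). Among the genes up to 8 places from MET17, BUD6 and MEP2 on either side, 0 was called, against 0.903% of all genes.

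**Figure D3:**
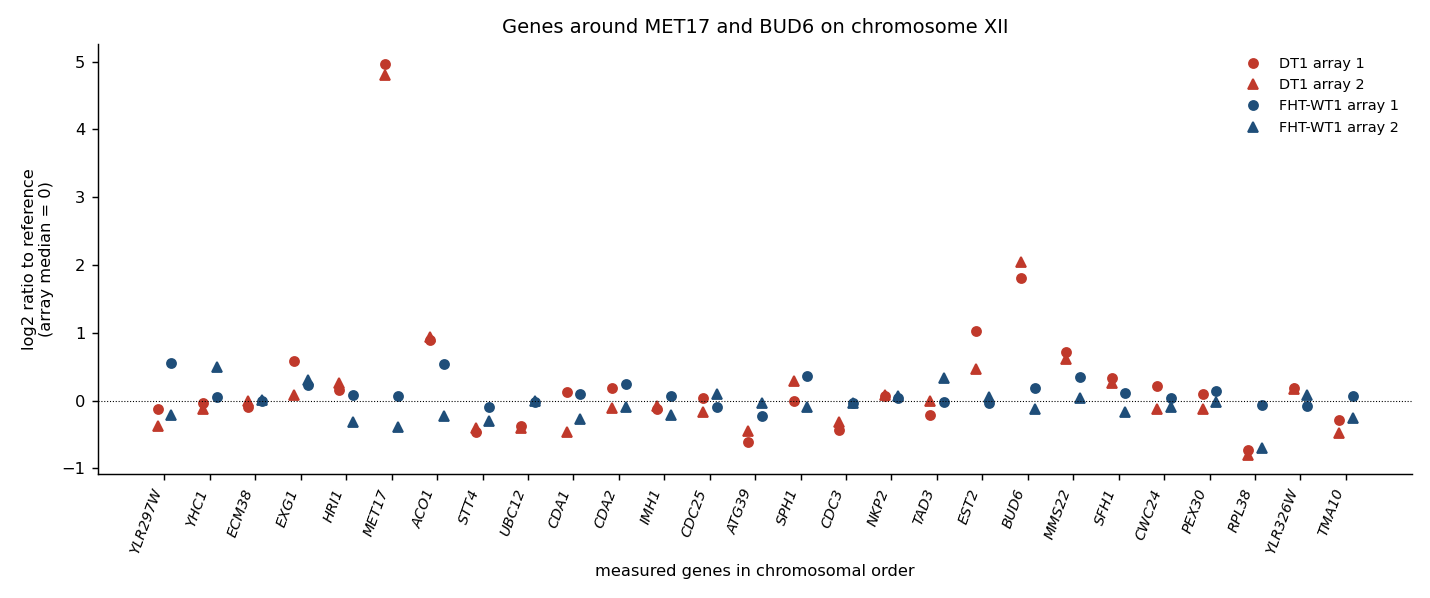
Centred log2 ratios of the measured genes around MET17 and BUD6 in chromosomal order, with genes evenly spaced; red symbols are the DT1 arrays and blue symbols the FHT-WT1 arrays, circles array 1 and triangles array 2. MET17 (4.97 and 4.80 in DT1) and BUD6 (1.81 and 2.05) stand out singly, EST2 and ACO1 are moderately high in DT1, and the other genes between them scatter around 0.

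Nitrogen uptake genes were among the called rises. They belong to the nitrogen catabolite repressed set, which yeast switches on through GATA factors when preferred nitrogen sources run short. MEP2 lay at 1.93 and 1.97 on the DT1 arrays, against 0.43 and 0.15 on the FHT-WT1 arrays. DUR3 lay at 1.75 and 1.85 on the DT1 arrays, against 0.37 and 0.36 on the FHT-WT1 arrays. For both genes every DT1 array was above every FHT-WT1 array by more than 1 log2 unit. MEP2 rose by 1.66 ± 0.28 (3.16-fold, limma adjusted p = 0.0226) and DUR3 by 1.44 ± 0.25 (2.70-fold, limma adjusted p = 0.0242). PTR2, the di- and tripeptide transporter, had 0.82 and 0.91 in DT1, against 0.23 and 0.12 in FHT-WT1, and narrowly missed the threshold (0.69 ± 0.15, limma adjusted p = 0.0509). The arginine permease gene CAN1 had 0.80 and 0.94 in DT1, against 0.08 and -0.01 in FHT-WT1 (0.83 ± 0.20, limma adjusted p = 0.0718).

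Over the 40 measured nitrogen catabolite repressed genes and their regulators, 2 were called higher and 0 lower, against 0.199% and 0.705% of all genes. At an unadjusted p under 0.05, 16 were higher and 1 lower, where 6.85% and 10.6% of all genes were. The list's median difference was 0.29, 35 of the 40 genes were above 0, and in 23 both DT1 arrays were above both FHT-WT1 arrays, as in 19.6% of all genes. Its median ratio to the reference was 0.38 and 0.40 on the DT1 arrays, against 0.07 and 0.07 on the FHT-WT1 arrays. The calls of MEP2 and DUR3 were lost under 7 and 8 of the 26 alternatives, among them those without DT1 array 1, DT1 array 2 or FHT-WT1 array 2 (adjusted p = 0.107 to 0.284 for MEP2 and 0.122 to 0.257 for DUR3), while their differences stayed between 1.20 and 1.82 and between 0.86 and 1.56. PTR3, a component of the plasma membrane sensor of external amino acids, is not on the list and rose by 0.52 ± 0.11 (limma adjusted p = 0.0485). Its values were 0.34 and 0.57 in DT1, against -0.10 and -0.03 in FHT-WT1, and its call was lost under 18 alternatives.

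The other genes called higher were BDH2, MAE1, ALD4, HBT1, MSA2 and AST1. BDH2, which encodes a dehydrogenase related to butanediol dehydrogenase, lay at 1.14 and 1.36 in DT1, against -0.07 and 0.22 in FHT-WT1, and rose by 1.18 ± 0.15 (2.26-fold, limma adjusted p = 0.00604). The mitochondrial malic enzyme gene MAE1 had 1.34 and 0.89 in DT1, against 0.38 and -0.28 in FHT-WT1, and rose by 1.06 ± 0.21 (2.09-fold, limma adjusted p = 0.0353). ALD4, the mitochondrial aldehyde dehydrogenase gene, had 0.85 and 0.88 in DT1, against 0.17 and -0.20 in FHT-WT1, and rose by 0.89 ± 0.17 (limma adjusted p = 0.036). In each of the 3, both DT1 arrays were above both FHT-WT1 arrays, which the rule for naming rises required. The remaining rises were HBT1 and MSA2, by 0.91 each, and AST1, by 0.77. HBT1 serves polarised growth in mating cells, MSA2 is a regulator of the start of the cell cycle, and AST1 helps to bring the plasma membrane proton pump to the cell surface. BDH2 lost its call under 4 alternatives, and the others named here under 8 to 18.

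ALD4 was the 1 called gene among 30 glycolysis and fermentation genes, against 0.199% of all genes called higher, and 11 were higher and 0 lower with p under 0.05 before adjustment, against 6.85% and 10.6% of all genes. The median of this list depended on the dye: on array 1 it was 0.71 in DT1 and 0.27 in FHT-WT1, and on array 2 it was 0.16 in DT1 and -0.12 in FHT-WT1. The homotypic pair differed between orientations as well, with 0.36 and -0.21. Within each orientation DT1 was the higher, and the median difference was 0.28, which was 0.12 with arrays scaled to 1 spread and 0.15 after quantile normalisation. ALD6, the cytosolic aldehyde dehydrogenase gene, had 0.64 and 0.83 in DT1, against -0.16 and -0.10 in FHT-WT1, without a call (0.86 ± 0.22, limma adjusted p = 0.0919). PDC5, a pyruvate decarboxylase gene, differed by 0.61 ± 0.17 and was not called (limma adjusted p = 0.105).

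Lists of stress and other carbon genes had smaller medians. Of 52 general stress, trehalose and glycogen genes 0 was called by limma, with 16 higher and 1 lower with p under 0.05 before adjustment, against 6.85% and 10.6% of all genes. The stress median was 0.11, which became 0.02 when FHT-WT1 array 1 was left out and 0.20 when FHT-WT1 array 2 was. TPS2, the trehalose phosphatase gene, differed by 0.51 ± 0.15 (limma adjusted p = 0.121). Of 40 genes of the TCA cycle and nonfermentable carbon use 0 was called. Before adjustment 8 were higher and 0 lower with p under 0.05, against 6.85% and 10.6% of all genes. The TCA median was 0.14, which leaving out FHT-WT1 array 1 or DT1 array 1 moved to 0.33 and 0.30, and leaving out FHT-WT1 array 2 or DT1 array 2 to 0.06 and 0.02. Of 28 glycerol and osmotic response genes BDH2 was the 1 called, against 0.199% of all genes called higher. GPD1, which starts glycerol synthesis, had 0.65 and 0.82 in DT1, against 0.03 and 0.19 in FHT-WT1 (0.63 ± 0.16, limma adjusted p = 0.089). As deposited, without centring, the median of all genes was -0.17, and the stress, TCA and glycerol medians were then -0.05, -0.02 and -0.07, below 0 but above that of all genes. Heat shock chaperones gave no shift that held in both orientations: their median was 0.37 in DT1 and 0.14 in FHT-WT1 on array 1, and -0.04 in DT1 and 0.04 in FHT-WT1 on array 2.

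**Figure D4:**
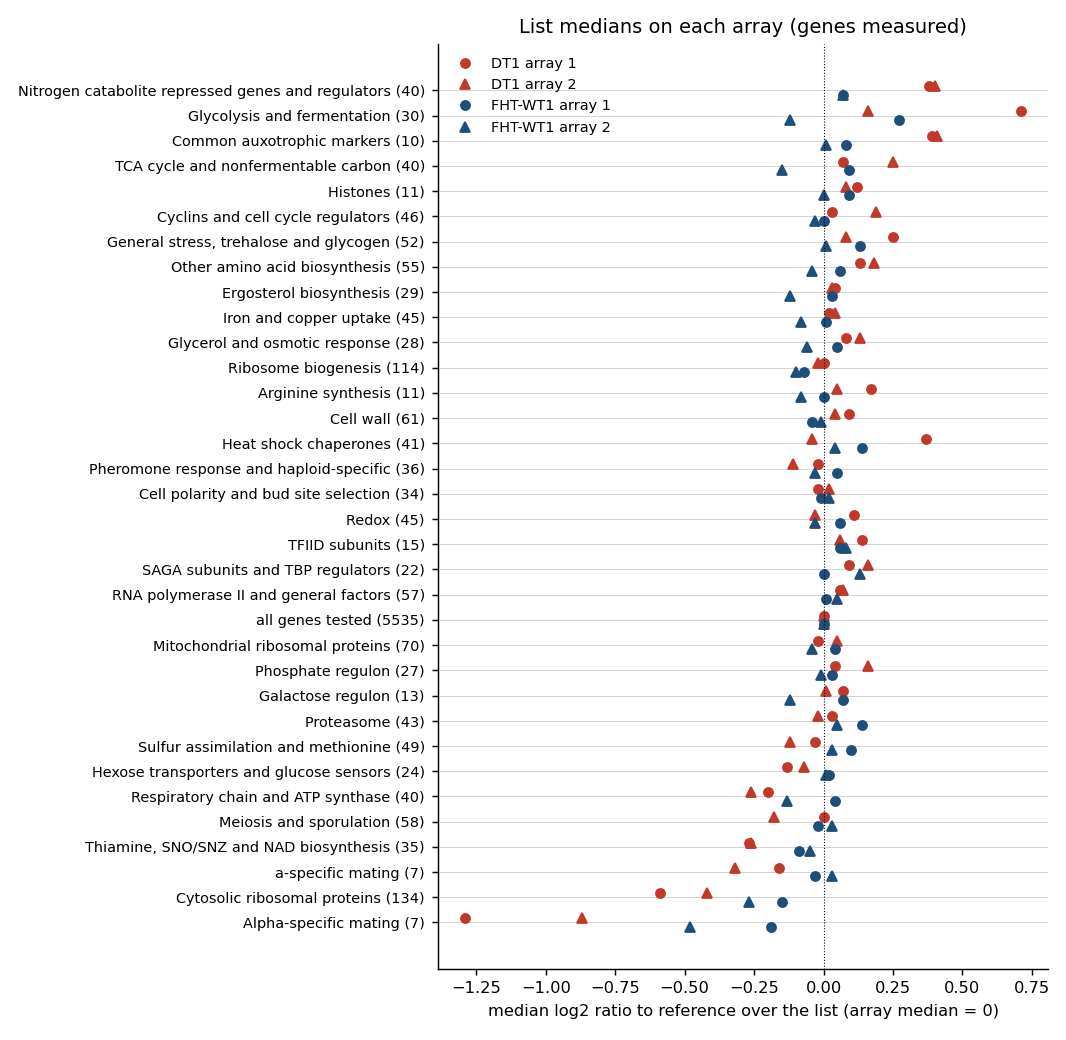
Median centred log2 ratio to the reference of each gene list on the 4 arrays, with the number of measured genes in brackets and lists sorted by their median difference; red symbols are the DT1 arrays and blue symbols the FHT-WT1 arrays, circles array 1 and triangles array 2. Nitrogen catabolite repressed genes stand at 0.38 and 0.40 in DT1 and 0.07 in FHT-WT1, cytosolic ribosomal proteins at -0.59 and -0.42 in DT1 and -0.15 and -0.27 in FHT-WT1, and alpha-specific genes lowest of all.

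Genes called lower came from many parts of the cell. Among them ADH7, an NADPH-dependent alcohol dehydrogenase, lost its call in the fewest alternatives. It lay at -0.78 and -0.82 in DT1, against 0.27 and 0.10 in FHT-WT1, and fell by 0.99 on the log2 scale (SE 0.11, 1.98-fold, limma adjusted p = 0.00294). ATX1, the copper chaperone that feeds the secretory pathway, lay at -1.12 and -1.26 in DT1, against -0.50 and -0.01 in FHT-WT1, and fell by 0.94 (SE 0.14, limma adjusted p = 0.0201). ECM15, a gene of unknown function, lay at -1.04 and -1.36 in DT1, against -0.12 and -0.52 in FHT-WT1, and fell by 0.88 (SE 0.12, limma adjusted p = 0.00833). In all 3 both DT1 arrays were below both FHT-WT1 arrays, which the rule for naming falls required. ADH7 was lost under 2 alternatives, with an adjusted p of 0.0994 without DT1 array 2 and of 0.133 when the 4 arrays were fitted alone, and ATX1 and ECM15 were each lost under 6. ADH7 and ATX1 differed in how they ran across the other strains, with ADH7 at -0.17 and -0.19 in TF1 and -1.10 and -1.32 in PB1, and ATX1 at -1.23 and -1.07 in TF1 and -1.22 and -1.09 in PB1. The iron and copper list of 45 genes held no other call, and its other leading members were not of 1 direction: 10 were higher and 3 lower, ATX1 included, at an unadjusted p under 0.05, against 6.85% and 10.6% of all genes.

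Several enzymes of cofactor synthesis were lower. BNA1, a dioxygenase of NAD synthesis from tryptophan, had -1.16 and -1.15 in DT1, against -0.28 and -0.27 in FHT-WT1 (-0.88 ± 0.16, limma adjusted p = 0.0248). THI11, of thiamine pyrimidine synthesis, had -0.76 and -0.96 in DT1, against -0.13 and -0.24 in FHT-WT1 (-0.68 ± 0.11, limma adjusted p = 0.0226). SNO3, of the vitamin B6 family, had -0.68 and -0.49 in DT1, against -0.04 and 0.01 in FHT-WT1 (-0.57 ± 0.11, limma adjusted p = 0.0352). These 3 were the called members of 35 thiamine, SNO/SNZ and NAD genes, against 0.705% of all genes called lower. At an unadjusted p under 0.05, 15 of the 35 were lower and 0 higher, against 10.6% and 6.85% of all genes, and the median was -0.19, or -0.12 without FHT-WT1 array 2. THI11 belongs to a family of near-identical copies, and SNO3 has a near-identical copy too, so their probes can bind each other's transcripts. The calls of THI11, BNA1 and SNO3 were lost under 9, 11 and 18 alternatives.

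DOG1 and DOG2, which encode closely similar 2-deoxyglucose-6-phosphate phosphatases whose probes can cross-hybridise, fell by 0.77 (limma adjusted p = 0.0226) and 0.90 (limma adjusted p = 0.0294). DOG2 lay at -1.20 and -1.18 in DT1, against -0.14 and -0.44 in FHT-WT1. TRX1, a cytosolic thioredoxin, lay at -1.13 and -0.93 in DT1, against -0.55 and -0.06 in FHT-WT1, and fell by 0.72 (limma adjusted p = 0.0248). It was the 1 called of 45 redox genes, against 0.705% of all genes called lower. RNH203, a subunit of ribonuclease H2, lay at -1.08 and -1.23 in DT1, against -0.23 and -0.46 in FHT-WT1, and fell by 0.81 (limma adjusted p = 0.026). In these 3 genes the DT1 arrays were both below the FHT-WT1 arrays, which the rule for naming falls required of DOG2 and RNH203. The mitochondrial fission gene FIS1 fell by 0.88, RGI2, which is needed for energy metabolism under respiration, by 0.98, and the protease gene YPS6 by 0.81. RGI2 leaned on array 1, with -1.67 and -0.88 in DT1, against -0.25 and -0.35 in FHT-WT1.

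Among 58 genes of meiosis and sporulation 3 were called lower and 0 higher, against 0.705% and 0.199% of all genes, and the median was -0.17, or -0.10 without FHT-WT1 array 2. SPO12, which promotes exit from mitosis and meiosis, had -0.73 and -0.75 in DT1, against -0.06 and -0.03 in FHT-WT1 (-0.70 ± 0.11, limma adjusted p = 0.0216). Its paralogue BNS1, which is not on the list, had -1.06 and -0.88 in DT1, against -0.34 and -0.24 in FHT-WT1 (-0.68 ± 0.12, limma adjusted p = 0.0248). ZIP1, of the synaptonemal complex, had -0.19 and -0.30 in DT1, against 0.91 and 0.35 in FHT-WT1 and 0.16 and 0.11 in the homotypic pair. Its fall of 0.87 (SE 0.13, limma adjusted p = 0.0164) was -0.69 without FHT-WT1 array 1 and then not called (limma adjusted p = 0.0577), and ZIP1 was not called against the homotypic pair (limma adjusted p = 0.0882). SSP1, which serves spore formation, fell by 0.70 (limma adjusted p = 0.0485). Of the sporulation markers IME1, NDT80, SPS1, SPS4 and DIT1, 0 was called, with differences between -0.35 (NDT80) and -0.05 (SPS1 and SPS4).

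The remaining called falls included genes for protein modification, secretion and chromatin. Among them were the ubiquitin-conjugating enzyme gene UBC1 (-0.71), the Ran GTPase gene GSP2 (-0.70), the RNA polymerase III subunit gene RPC11 (-0.69), the oligosaccharyltransferase subunit gene OST5 (-0.69), the clathrin adaptor gene APS1 (-0.64), the glycosylation gene ALG13 (-0.60), the INO80 subunit gene IES6 (-0.60) and CPR5, a cyclophilin of the endoplasmic reticulum. Adjusted p by limma lay between 0.0207 (RPC11) and 0.0353. SDD1, YGL230C, LTP1, YPR148C, FUN14, EMI1, MAL33, OLA1, YHI9, ARR1, YGR153W and AAD3 made up the rest, between -0.87 (SDD1) and -0.55 (AAD3). DFP4 and EMA35 were smaller without FHT-WT1 array 2: DFP4 was -1.0 with all arrays and -0.55 without that array, and EMA35 was -0.77 and -0.53. Without DT1 array 2, EMA35 was -0.58 and DFP4 -0.92. Each of the genes lost its call under 16 alternatives. EMA35 lay at -0.16 and -0.46 in DT1 and 0.25 and 0.67 in FHT-WT1, on opposite sides of the reference.

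Cytosolic ribosomal protein genes leaned lower in DT1 as a group, although none passed the test singly. Of 134 genes 0 was called by limma, 55 were lower and 0 higher at an unadjusted p under 0.05, where 10.6% of all genes were lower, and 127 had a difference below 0. Both DT1 arrays were below both FHT-WT1 arrays in 85 of the 134, against 22.5% of all genes. The median difference was -0.29, with -0.59 and -0.42 on the DT1 arrays, against -0.15 and -0.27 on the FHT-WT1 arrays and -0.02 and 0.02 in the homotypic pair. RPL31B was nearest to a call, with -0.48 and -0.63 in DT1, against -0.03 and -0.09 in FHT-WT1 (-0.49 ± 0.11, limma adjusted p = 0.052), followed by RPL27A (-0.53 ± 0.12, limma adjusted p = 0.0689) and RPS26A (-0.49 ± 0.12, limma adjusted p = 0.0718). The size of the group's shift moved with the handling of the arrays: leaving out FHT-WT1 array 1 gave a median of -0.21 and leaving out FHT-WT1 array 2 one of -0.39, and it was -0.18 with arrays scaled to 1 spread, -0.12 after quantile normalisation, and -0.23 with the trend over gene length removed. Many of these genes come as near-identical pairs whose probes cross-hybridise. Mitochondrial ribosomal protein genes, 70 in number, had a median of -0.01, and 114 ribosome biogenesis genes had 0.08, with 0 called by limma in each.

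Genes specific to haploid alpha cells had the lowest list median, -0.69 over 7 genes, also without a call. STE3, the receptor for a-factor, had -1.39 and -1.34 in DT1, against -0.11 and -0.72 in FHT-WT1 (-0.95 ± 0.23, limma adjusted p = 0.0718). AFB1, which binds a-factor, had -1.25 and -1.28 in DT1, against -0.45 and -0.48 in FHT-WT1 (-0.80 ± 0.20, limma adjusted p = 0.09). The pheromone gene MF(ALPHA)1 had -1.78 and -2.06 in DT1, against -0.19 and -1.43 in FHT-WT1, and MF(ALPHA)2 had -1.29 and -0.76 in DT1, against -0.38 and -0.29 in FHT-WT1. SAG1, the alpha-agglutinin gene, had -1.30 and -0.87 in DT1, against -0.32 and -0.68 in FHT-WT1. In each of these 5 genes the DT1 arrays lay below the FHT-WT1 arrays. The mating-type regulator genes themselves differed less, by -0.24 for MATALPHA1 and -0.13 for MATALPHA2. Leaving out FHT-WT1 array 1 gave a list median of -0.45, and leaving out FHT-WT1 array 2 one of -1.05. Against the homotypic pair 5 of the 7 genes were called lower, against 6.03% of all genes (8.35% were called in either direction). The 7 a-specific genes ran between -0.30 (AGA2) and 0.05 (MFA1), with 0 called by limma. In bulk RNA, fewer cells of a type and less RNA per cell cannot be told apart.

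Respiratory chain and ATP synthase genes had a median of -0.14 over 40 genes. None was called by limma, and 9 were lower at an unadjusted p under 0.05 while 0 were higher, against 10.6% and 6.85% of all genes. COX13, a cytochrome oxidase subunit gene, led them, with -0.42 and -0.52 in DT1, against 0.03 and 0.06 in FHT-WT1 (-0.52 ± 0.12, limma adjusted p = 0.0727). The list's median was -0.09 without DT1 array 1, -0.27 without DT1 array 2 and -0.01 with the trend over gene length removed. The galactose regulon held no called gene among 13 by limma, the median was -0.03, and GAL7, a galactose-1-phosphate uridylyltransferase gene, had the lowest difference (-0.39 ± 0.16, limma adjusted p = 0.243). Lists for SAGA and TATA-binding protein regulators (22 genes, median 0.01), RNA polymerase II and general factors (57, -0.01), histones (11, 0.12), cyclins (46, 0.12), the proteasome (43, -0.08) and the cell wall (61, 0.06) held 0 called genes each.

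The falls were concentrated in short genes. The 39 genes called lower had a median annotated length of 654 bp, and 34 of them were shorter than the median of all genes, 1266 bp. The 11 called higher had a median of 1560 bp, with 2 shorter than the median. Across genes the DT1 minus FHT-WT1 difference correlated with log2 length with r = 0.241, as a description over 5530 genes that share the same arrays. The trend was present on both DT1 arrays (0.24 and 0.243) and smaller on the FHT-WT1 arrays (0.112 and 0.061) and in the homotypic pair (0.143 and -0.064). It was not particular to DT1, with 0.216 and 0.28 in TF1, 0.205 and 0.249 in HT4, 0.149 and 0.246 in PB1 and 0.214 and 0.303 in the null strain. In the shortest eighth of genes, 78 to 567 bp, the median ratio was -0.15 and -0.16 on the DT1 arrays, against -0.04 and -0.01 on the FHT-WT1 arrays, and 16 of the 39 falls lay there. With the trend removed 17 genes were called, 16 of them among the 50, and the part of length in the single falls was not tested further.

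**Figure D5:**
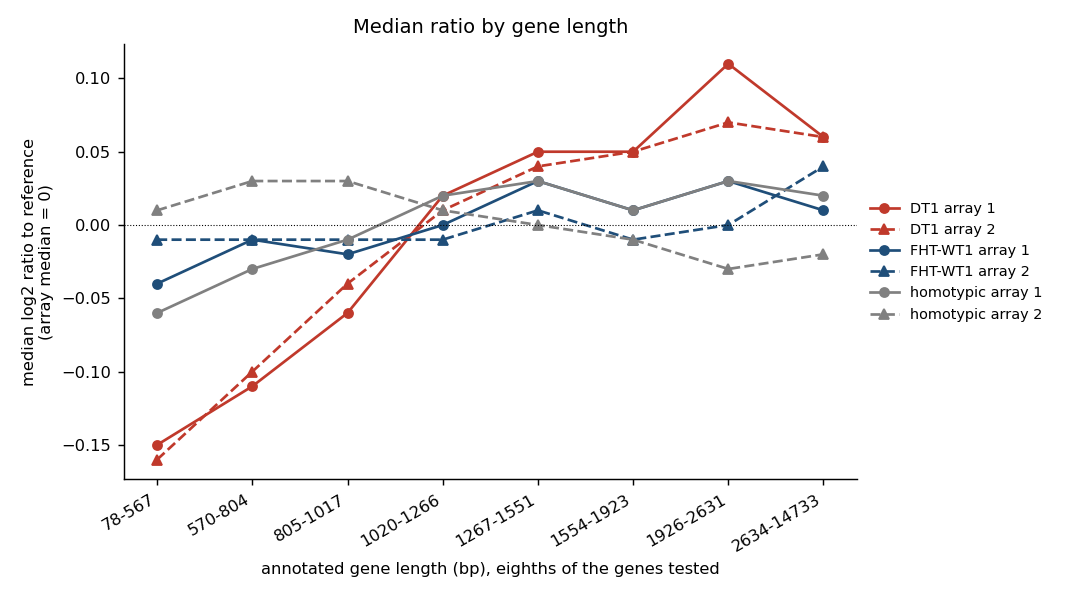
Median centred log2 ratio on each array by annotated gene length, in eighths of the genes tested, for DT1 (red), FHT-WT1 (blue) and the homotypic pair (grey); solid lines with circles are array 1 and dashed lines with triangles array 2. Both DT1 arrays run up with length, with -0.15 and -0.16 in the shortest eighth and 0.11 and 0.07 in the seventh, while the FHT-WT1 arrays stay between -0.04 and 0.04.

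Because the FHT-WT1 arrays ran so differently, DT1 was also set against the homotypic pair, in which both dyes hold the reference strain. The homotypic arrays did not resemble each other either (r = -0.2269). Here 462 genes were called, 8.35%, with 128 higher (2.31%) and 334 lower (6.03%) in DT1. The comparison uses the same DT1 arrays and is no independent repeat. MET17 was higher by 5.07 (limma adjusted p = 9.65e-08), BUD6 by 1.97 (limma adjusted p = 0.00135), MEP2 by 2.12 and DUR3 by 1.79. Of the 40 nitrogen genes 15 were higher, of the 134 ribosomal protein genes 63 were lower, and of the 35 thiamine, SNO/SNZ and NAD genes 16 were lower, with 0 in the opposite direction in each list. As deposited the call count was 1151, with 13 higher and 1138 lower. In that setting the median difference over all genes was -0.38, and the homotypic arrays themselves had medians of 0.3012 and 0.2444. The balance of higher and lower calls as deposited therefore includes the offset of the homotypic arrays. After quantile normalisation the count was 560, with 229 higher and 331 lower. With the sign of homotypic array 2 reversed it was 175, since how that array was turned is not stated.

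DT1 was last set against the mean of the other construct strains, in which FHT-WT1 is no term of the difference but its arrays share in the fitted spread and dye effect. Leaving out either FHT-WT1 array gave 2 called genes. With all arrays it showed 1 called gene of 5535, 0.0181%, and 517 at an unadjusted p under 0.05. The gene was YIR042C, to which no role is given here. It lay at -1.29 and -1.68 in DT1, against -0.38 and -0.59 in TF1, -0.04 and -0.07 in HT4 and 0.39 and 0.12 in PB1, so both DT1 arrays were below all 6 others. The difference from their mean was -1.39 ± 0.16 (limma adjusted p = 0.0121). Against FHT-WT1, at -0.98 and -0.43, it was not called (-0.78 ± 0.20, limma adjusted p = 0.0919). Across genes DT1 ran closely with TF1, with r = 0.8841 between the first arrays and 0.8052 between the second. Such pairs share the reference and the dye orientation. The same correlations of DT1 were 0.8716 and 0.7298 with HT4, 0.6963 and 0.6915 with PB1 and 0.8057 and 0.5544 with the null strain. Set against the same 2 FHT-WT1 arrays, 50 genes were called in DT1 (0.903%), 206 in TF1 (3.72%), 648 in HT4 (11.7%) and 407 in PB1 (7.35%), and whether these numbers differ was not tested.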

How the data were processed

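Each array's deposited column holds log2 ratios between its dyes. Mode normalisation in R and a correction by B. subtilis spikes, added per OD600 of culture, were done by the authors, per the series text. Scanner, image software and background correction are not given in the sources used here. Of 7056 features, 5579 carry a gene symbol in the platform annotation and give 5548 genes, 5543 of them matched to RefSeq (used for names, gene order and length). Features of a gene were averaged, each array was centred on its median over named genes, and the 5535 genes measured on each of the 14 arrays were fitted.

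limma 3.58.1 in R 4.3.3 (lmFit, eBayes) was run with a mean for each of 7 groups and a term for dye orientation, which left 6 residual degrees of freedom per gene, with 5.98 prior. Tests were two-sided, with Benjamini-Hochberg adjustment. The arrays' number limits the precision, and the median SE of a difference was 0.133. Arrays were grouped by their titles and the strain in each channel.

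The comparison, gene lists and named genes were chosen with earlier results of these data known. Named were TAF1, up to 15 called rises and 15 called falls with 1 sign in all pairings, up to 3 members of each list by moderated t, every called list member, and calls against the other constructs. For the rises and falls so named, arrays of DT1 and FHT-WT1 that do not overlap were a condition of naming and give no further support. The other called genes, all alpha-specific members, marker genes and EST2 were added after their values were seen. Alternatives changed centring, scaling, dye term, arrays fitted and gene filters. A promoter motif search was planned and not run, because no sequence was used here.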

Additional observations from a re-analysis of the deposited data

Results flagged for a closer look

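YIR042C was singled out because a test of the difference itself separated DT1 from the other construct strains: its log2 ratio in DT1 minus the mean of TF1, HT4 and PB1 was -1.39 (SE 0.16, limma adjusted p = 0.0121, n = 2 DT1 arrays and 6 others). Both DT1 arrays lay below all 6 other construct arrays. FHT-WT1 also lay below the reference at this gene, with -0.98 and -0.43, and was variable. The call was lost in 5 of 26 alternatives, with an adjusted p of 0.401 when arrays were scaled by their spread, 0.0532 without a dye term, 0.0639 without TF1 array 1, 0.0578 without HT4 array 2 and 1 without DT1 array 2. Over all alternatives the difference ran between -1.54 and -1.24.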

How the results depend on the processing

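Across 26 alternatives all 50 genes called in DT1 against FHT-WT1 kept their sign, and MET17 was the 1 gene to keep its call in each. Several of the 26 repeat the same fit, as set out below. Each repeat is counted in the numbers of alternatives given for single genes. Their number was 50 in the main analysis, 3 with arrays scaled by spread, 3 after quantile normalisation, 4 without a dye term, 1 with the 4 compared arrays alone, 33 without the homotypic pair and 26 with homotypic array 2 reversed. In 2 alternatives added after seeing the data it was 80 without the null pair and 17 with the length trend removed. Leaving out 1 array at a time gave 1 to 80, with 1 without DT1 array 2, 11 without DT1 array 1, 27 without FHT-WT1 array 2, 24 without either TF1 array, 33 without either homotypic array, 77 without either PB1 array and 80 without either null array. For a group outside the comparison, leaving out either array is the same fit as leaving out both, because a single array leaves no residual. These are therefore not separate checks. The higher and lower calls were 11 and 39 in the main analysis, 8 and 41 as deposited, and 2 and 1 when scaled or quantile normalised. DT1 against the homotypic pair gave 462 genes, against 1151 as deposited, 47 without a dye term, 1201 with the compared arrays alone and 175 with homotypic array 2 reversed, and 37 to 656 when leaving out 1 array. DT1 against the mean of TF1, HT4 and PB1 gave 1, against 8 as deposited, 0 when scaled by spread and 0 without a dye term (197 and 151 at an unadjusted p under 0.05 by limma) and 2 with the compared arrays alone, and 0 to 8 when leaving out 1 array. For single genes, with repeated fits counted each time, 1503 alternative values stayed on the same side of the threshold, 569 lost a call and 60 gained one. The causes were not tested. No paired analysis was possible because the array numbers follow accession order and coincide with dye orientation, which is already a term in the fit. Signal over background was not analysed here, so dim genes cannot be told from bright ones.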

Other observations

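Genes used as auxotrophic markers were looked at beside MET17. Of 10 measured, MET17 was the 1 called, against 0.199% of all genes called higher. At an unadjusted p under 0.05 there were 4 higher and 0 lower, against 6.85% and 10.6% of all genes. LEU2, the leucine synthesis gene that cells need in medium without leucine, had 0.58 and 0.49 in DT1, against 0.19 and -0.24 in FHT-WT1 (0.56 ± 0.15, limma adjusted p = 0.096). URA3 differed by -0.02 and TRP1 by -0.29, neither called. At FET3, a multicopper oxidase gene of iron uptake, DT1 had 0.50 and 0.59, against 0.00 and -0.40 in FHT-WT1 (0.75 ± 0.19, limma adjusted p = 0.0919), while ARN2, a siderophore transporter gene, had -0.44 and -0.47 in DT1, against 0.00 and 0.22 in FHT-WT1 (-0.56 ± 0.12, limma adjusted p = 0.0509). The sterol synthesis gene ERG25 differed by 0.66 ± 0.17 (limma adjusted p = 0.096) in a list of 29 genes with 0 called by limma and a median of 0.10. HXT2, a hexose transporter gene, had 0.84 and 1.36 in DT1, against 0.46 and 0.31 in FHT-WT1 (0.71 ± 0.28, limma adjusted p = 0.217), and the list of 24 hexose transporter and sensor genes had a median of -0.12.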
